A study of Mus musculus with 10 samples.

Results

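The genes described here carry glucose into the cell and through the upper steps of glycolysis: 3 glucose transporters (Slc2a1, Slc2a3 and Slc2a4), 2 hexokinases (Hk1 and Hk2), glucose-6-phosphate isomerase (Gpi1), 3 phosphofructokinases (Pfkl, Pfkm and Pfkp) and aldolase A (Aldoa). They were taken by gene symbol, 10 of the 22835 gene names in the tables, and all 10 were found, on 15 of the 29082 transcript rows. For each symbol the transcript row with the highest mean level over the 4 RNA libraries was used.

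Cells take up glucose through transporters of the GLUT family. GLUT1, made from Slc2a1, is the transporter of most cultured cells, GLUT3 (Slc2a3) is best known from neurons, and GLUT4 (Slc2a4) is the insulin-responsive transporter of fat and muscle, moved to the cell surface when insulin binds. Hexokinase traps glucose as glucose 6-phosphate, the isomerase turns it into fructose 6-phosphate, phosphofructokinase commits it to glycolysis, and aldolase splits the product into trioses. In fat cells this route also supplies the glycerol backbone and acetyl units of stored fat, and brown fat is known for high glucose uptake.

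The cultures came from preadipocytes of newborn mouse interscapular brown fat that had been immortalised with the SV40 large T antigen, and every group carries CreER, a recombinase activated by 4-hydroxytamoxifen (4OHT). The study asked how histone H3.3 with lysine 4 replaced by methionine (H3.3K4M) acts on the enhancer methyltransferases MLL3 and MLL4 during adipogenesis. The LSL-K4M;CreER line, by its name, holds H3.3K4M behind a lox-stop-lox cassette, and the Mll3f/f;Mll4SETf/f;CreER line, called Mll3/4SET here, holds floxed Mll3 and a floxed SET domain of Mll4; each was grown as mock or with 4OHT. All cultures were induced to differentiate with insulin, T3, IBMX, dexamethasone and indomethacin and then kept in insulin and T3. RNA was sequenced from 1 library per group, 4 in all, staged as mature adipocytes of day 7 in the labels and in the table headers, although day 0 stands in the titles of the 4OHT libraries. Day 7 was used, and were the titles right, every 4OHT to mock fold below would set day 0 against day 7, so that stage and treatment cannot be told apart from these labels alone. The labels name neither the promoter that drives CreER nor the number of clones behind each line. The 6 ChIP-seq and input libraries, all of LSL-K4M at day 4, were not analysed here.

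The libraries held 15209607 to 16719658 reads over 1 transcript per gene. With 1 library per group nothing could be checked against replicates, so the text holds no p-value. Levels are RPKM, read counts divided by the length of the transcript and the size of the library, as deposited by the authors. Brackets beside a fold hold an exact 95% interval for counting error alone, computed from the reads. A gene counts as 2-fold lower or higher by its difference on the log2(RPKM + 1) scale, which understates low genes, for genes whose higher library in a comparison reached 1 RPKM. Whole-transcript levels of Mll3 (5.17 and 4.09 RPKM in LSL-K4M mock and 4OHT, 7.48 and 5.46 in Mll3/4SET) and of the gene for MLL4, listed as Mll2 (9.31, 10.2, 13.6 and 12.2), do not show whether the floxed exons were lost. The 8 adipocyte markers summed to 5743 RPKM in LSL-K4M mock and 1470 with 4OHT, and to 6301 and 50.0 in Mll3/4SET. All 8 of 8 were 2-fold lower in each line, against 6.19% of all genes in LSL-K4M and 7.41% in Mll3/4SET. The level of these markers in the Mll3/4SET 4OHT library is low for its label of mature adipocytes. The 5 contractile markers summed to 416.6 RPKM in LSL-K4M mock against 2039 with 4OHT, and to 228.7 against 1054 in the other line. In each line 5 of 5 were 2-fold higher, against 5.26% of all genes in LSL-K4M and 5.18% in Mll3/4SET. Every 4OHT to mock difference below was measured beside these shifts, whose part in it was not tested. In bulk RNA fewer cells of a type and less RNA per cell cannot be told apart.

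With 4OHT, Slc2a4, Hk2, Gpi1, Pfkl, Pfkp and Aldoa were lower in both lines, Hk1 and Slc2a3 were higher in both, Slc2a1 was higher in LSL-K4M and lower in Mll3/4SET, and Pfkm was nearly level. In LSL-K4M, 5 of the 10 genes were 2-fold lower, against 6.19% of all 12179 genes measured, and 0 were 2-fold higher, against 5.26%. In Mll3/4SET 3 of the 10 were 2-fold lower, against 7.41% of 12184 genes, and 0 were higher, against 5.18%. The members called were Slc2a4, Pfkl and Aldoa in both lines, with Hk2 and Gpi1 in LSL-K4M alone; their Mll3/4SET differences, -0.83 for Hk2 and -0.92 for Gpi1 on the log2(RPKM + 1) scale, fell short of it. With a pseudocount of 0.001 in place of 1 the genes called higher over all genes numbered 1075 rather than 641 in LSL-K4M and 1083 rather than 631 in Mll3/4SET, with 0 members among them. Those called lower numbered 1084 rather than 754 in LSL-K4M and 1161 rather than 903 in Mll3/4SET, with the same members among them. Under median-ratio scaling Gpi1 passed in Mll3/4SET too, at -1.05. Slc2a3 was measured only through its 4OHT libraries, as both mock libraries lay under 1 RPKM. The median log2 difference of the 10 genes was -0.89 in LSL-K4M and -0.77 in Mll3/4SET, where the medians of all genes measured were 0.10 and 0.12. Aldoa, the most abundant of the 10, held 68.1% of their summed RPKM in LSL-K4M mock and 61.6% with 4OHT, and 75.4% and 62.9% in Mll3/4SET.

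**Figure D1:**
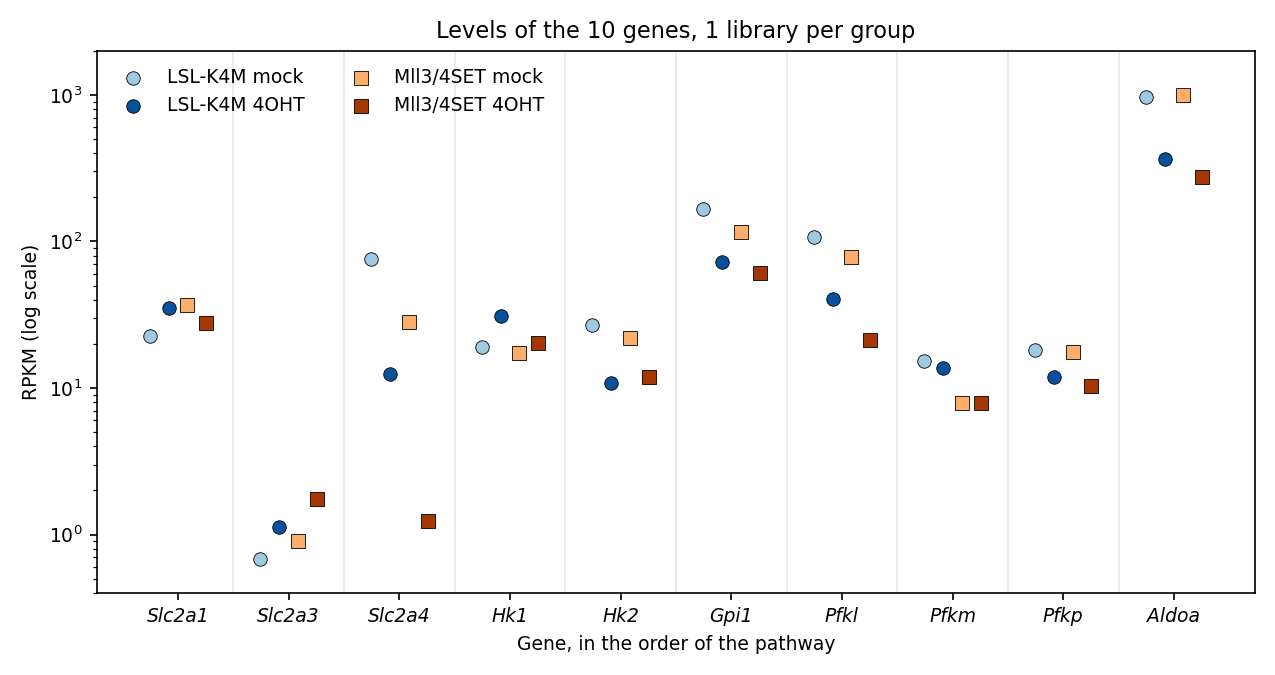
RPKM on a log axis of each gene in the 4 libraries, each point 1 library. Slc2a4 spans the widest range, from 76.1 RPKM in LSL-K4M mock to 1.24 in Mll3/4SET 4OHT, and Aldoa is the highest of the 10 in every library.

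The stretch upstream of each start was read to show what lies before members that were lower in both lines and before Slc2a1, which was not. RefSeq promoter windows of build GRCm38.p6, another build than the mm9 of the tables, were matched by symbol for 8 of the 10 genes, with 14 starts; Slc2a3 and Slc2a4 had no entry. The 250 bases before each start were searched on both strands for the core of the hypoxia response element in both of its forms, with A at the start (ACGTG) or with G there instead (GCGTG). The other motifs searched were the E-box, CACGTG, which contains the former core, the GC box, which reads GGGCGG, the DR1 site, known from PPARG and RXR dimers and made of AGGTCA repeated after any 1 base, and a palindrome of the C/EBP family, TTGCGCAA. Shown 5′ to 3′ on the gene's strand are the windows of 3 members, with both forms of the hypoxia core on either strand in capitals:
Slc2a1, chr4:119108495-119108744, plus strand: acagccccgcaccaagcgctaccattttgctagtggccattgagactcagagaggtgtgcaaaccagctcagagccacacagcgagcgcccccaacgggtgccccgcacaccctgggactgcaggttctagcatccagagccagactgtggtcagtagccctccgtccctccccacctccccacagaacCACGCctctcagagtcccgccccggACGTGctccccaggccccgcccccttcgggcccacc
Hk2, chr6:82774455-82774704, minus strand: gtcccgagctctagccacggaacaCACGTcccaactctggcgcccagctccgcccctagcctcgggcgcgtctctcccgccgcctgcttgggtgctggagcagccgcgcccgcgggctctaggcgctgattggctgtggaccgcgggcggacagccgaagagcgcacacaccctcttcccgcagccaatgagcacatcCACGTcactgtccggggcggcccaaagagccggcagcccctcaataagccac
Pfkl, chr10:78009808-78010057, minus strand: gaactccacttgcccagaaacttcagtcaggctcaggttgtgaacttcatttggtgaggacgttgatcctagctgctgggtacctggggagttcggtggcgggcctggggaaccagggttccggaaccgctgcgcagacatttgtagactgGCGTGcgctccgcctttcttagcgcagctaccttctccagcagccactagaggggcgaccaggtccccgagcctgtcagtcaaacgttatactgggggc
Slc2a1 held 1 ACGTG and 1 GCGTG, Hk2 held 2 ACGTG, and Pfkl held 1 GCGTG. Gpi1, also lower in both lines, held neither form in its window, which is not printed. Of the 14 starts, 6 held ACGTG, against 16.6% of all 32851 starts in the RefSeq set, and the genes were Slc2a1, Hk2, Aldoa and Pfkm. GCGTG was also in 6 of the 14, against 28.2%, and the GC box in 6, against 32.7%, including 2 copies before Gpi1. The E-box was before 1 start of Pfkm (6.02% of all starts), and neither the DR1 site (0.0335% of all starts) nor the C/EBP palindrome (0.164%) was found in these windows. Several starts of Aldoa and Pfkm overlap, so they are not separate observations, and the letters mark no bound site.

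Of the transporters, Slc2a4 had the largest difference of the 10 genes in both lines. LSL-K4M held 76.1 RPKM without and 12.5 with 4OHT, and Mll3/4SET held 28.1 without and 1.24 with it, from 4635, 814, 1764 and 76 reads. Both mock libraries were above both 4OHT libraries. It was 6.07-fold lower with 4OHT in LSL-K4M (5.64 to 6.55) and 22.6-fold lower in Mll3/4SET (18.0 to 28.8). On the log2(RPKM + 1) scale it ranked 32 from the lowest of 12179 genes in LSL-K4M and 79 of 12184 in Mll3/4SET. The ratio of 4OHT to mock was 3.72-fold lower in Mll3/4SET than in LSL-K4M (2.92 to 4.80).

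Slc2a1 went the other way in LSL-K4M. There it read 22.6 RPKM in mock but 35.4 with 4OHT, 1.57-fold higher (1.46 to 1.68), whereas the Mll3/4SET libraries read 36.8 in mock and 28.0 with the drug, 1.31-fold lower (1.23 to 1.41). The 4 levels lay within a narrow band, with LSL-K4M mock the lowest and Mll3/4SET mock the highest. The ratio of 4OHT to mock was 2.06-fold lower in Mll3/4SET (1.87 to 2.27), and neither line reached 2-fold. Slc2a3 was scarce, with 0.679 RPKM in LSL-K4M mock, 1.12 after 4OHT, 0.896 in Mll3/4SET mock and 1.75 after 4OHT, from 58, 102, 79 and 150 reads. It was 1.65-fold higher with 4OHT in LSL-K4M (1.18 to 2.32) and 1.95-fold higher in Mll3/4SET (1.48 to 2.59), and the lines' ratios did not differ beyond counting error (1.18, 0.757 to 1.84).

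The order of the transporters by RPKM differed between the libraries. Slc2a4 exceeded Slc2a1 by 3.37 times in LSL-K4M mock, while Slc2a1 exceeded Slc2a4 by 2.82 times in LSL-K4M 4OHT, 1.31 times in Mll3/4SET mock and 22.5 times in Mll3/4SET 4OHT. Of the summed RPKM of the 3 transporters, Slc2a4 made up 76.6% and 25.5% in LSL-K4M mock and 4OHT, and 42.7% and 4.01% in Mll3/4SET. The sum itself was 2.03 times lower with 4OHT in LSL-K4M, 99.3 against 49.0 RPKM, and 2.12 times lower in Mll3/4SET, 65.7 against 30.9.

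The hexokinases differed in opposite directions. Hk1, the isozyme of most tissues, had 19.1 RPKM without and 31.1 with 4OHT in LSL-K4M, against 17.2 without and 20.2 with it in the other line. It was 1.62-fold higher with 4OHT in LSL-K4M (1.53 to 1.73) and 1.17-fold higher in Mll3/4SET (1.09 to 1.25). Hk2, the insulin-regulated isozyme of fat and muscle, was at 27.1, 10.8, 22.0 and 11.9 RPKM in the same order. Both mock libraries were above both 4OHT libraries, and Hk2 was 2.50-fold lower in LSL-K4M (2.34 to 2.66) and 1.84-fold lower in Mll3/4SET (1.73 to 1.97). Its ratio of 4OHT to mock was 1.35-fold higher in Mll3/4SET (1.24 to 1.48), the opposite order of lines to Slc2a4.

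Hk2 was the more abundant hexokinase in both mock libraries and Hk1 in both 4OHT libraries. Hk1 made up 41.4% of the summed RPKM of the pair in LSL-K4M mock and 74.1% with 4OHT, and 43.9% and 62.9% in Mll3/4SET. The sum moved little beside the other steps, from 46.2 to 41.9 RPKM in LSL-K4M, 1.10 times lower with 4OHT, and from 39.2 to 32.1 in Mll3/4SET, 1.22 times lower. Both Hk1 transcript rows gave like folds, 1.62 and 1.64 for LSL-K4M, 1.17 and 1.18 for Mll3/4SET.

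**Figure D2:**
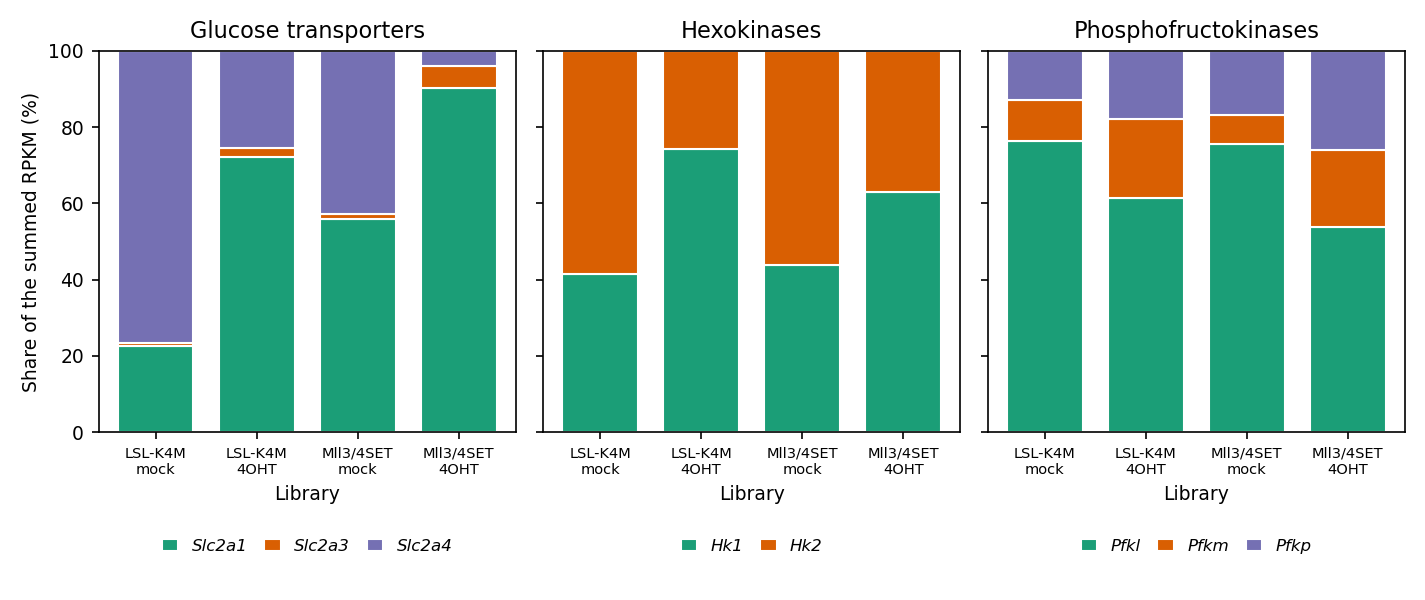
Stacked bars give the share of each gene, in percent, in the summed RPKM of its family in each of the 4 libraries. With 4OHT the share of Slc2a4 shrinks from 76.6% to 25.5% in LSL-K4M and from 42.7% to 4.01% in Mll3/4SET, and Hk1 and the phosphofructokinases other than Pfkl take larger shares in both lines.

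Gpi1, which encodes the isomerase, had 166.3 RPKM without and 71.8 with 4OHT in LSL-K4M, against 115.7 without and 60.5 with it in the other line. Both 4OHT libraries were below both mock libraries. It was 2.31-fold lower in LSL-K4M (2.24 to 2.40) and 1.91-fold lower in Mll3/4SET (1.84 to 1.99), and the ratio was 1.21-fold higher in Mll3/4SET (1.15 to 1.28).

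Among the phosphofructokinases, Pfkl, the liver-type subunit, carried most of the difference. LSL-K4M held 107.3 RPKM without and 40.6 with 4OHT, and Mll3/4SET held 78.7 without and 21.2 with it. Both mock libraries were again above both 4OHT libraries, by 2.64-fold in LSL-K4M (2.54 to 2.75) and 3.72-fold in Mll3/4SET (3.53 to 3.93). The ratio of 4OHT to mock was 1.41-fold lower in Mll3/4SET (1.32 to 1.51).

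Pfkp, the platelet-type subunit, was at 18.2, 11.9, 17.5 and 10.3 RPKM, 1.54-fold lower in LSL-K4M (1.42 to 1.66) and 1.70-fold lower in Mll3/4SET (1.57 to 1.85), short of the limit in both. Pfkm, the muscle-type subunit, was at 15.2, 13.6, 7.89 and 7.93 RPKM. It differed between the lines more than with 4OHT, being 1.12-fold lower with 4OHT in LSL-K4M (1.02 to 1.23) and within counting error in Mll3/4SET (1.01-fold higher, 0.886 to 1.14). For neither gene did the ratios of the lines differ beyond counting error, at 0.902 for Pfkp (0.804 to 1.01) and 1.13 for Pfkm (0.964 to 1.32), Mll3/4SET over LSL-K4M.

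The summed RPKM of the 3 phosphofructokinases was 140.7 in LSL-K4M mock and 66.1 with 4OHT, 2.13 times lower, and 104.1 and 39.3 in Mll3/4SET, 2.65 times lower. Pfkl held 76.2% of that sum in LSL-K4M mock and 61.5% with 4OHT, and 75.7% and 53.8% in Mll3/4SET. Pfkm held 10.8%, 20.5%, 7.58% and 20.1% in the same libraries.

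Aldoa had 965.2 RPKM without and 366.7 with 4OHT in LSL-K4M, against 995.9 without and 276.4 with it in Mll3/4SET. By level it ranked 11 and 9 from the top of all genes in the mock libraries of LSL-K4M and Mll3/4SET, and 59 and 76 with 4OHT. It was 2.63-fold lower with 4OHT in LSL-K4M (2.58 to 2.69) and 3.60-fold lower in Mll3/4SET (3.52 to 3.69), a ratio 1.37-fold lower in the latter (1.33 to 1.41). The other Aldoa rows gave folds of 2.64 in LSL-K4M and of 3.61 and 3.58 in Mll3/4SET. Aldoart1 and Aldoart2, retrogene copies of Aldoa, were listed with 3596, 1430, 3694 and 979 reads and with 1209, 537, 1296 and 394 reads in the same libraries, so reads may be shared between these rows and Aldoa is uncertain to that extent.

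**Figure D3:**
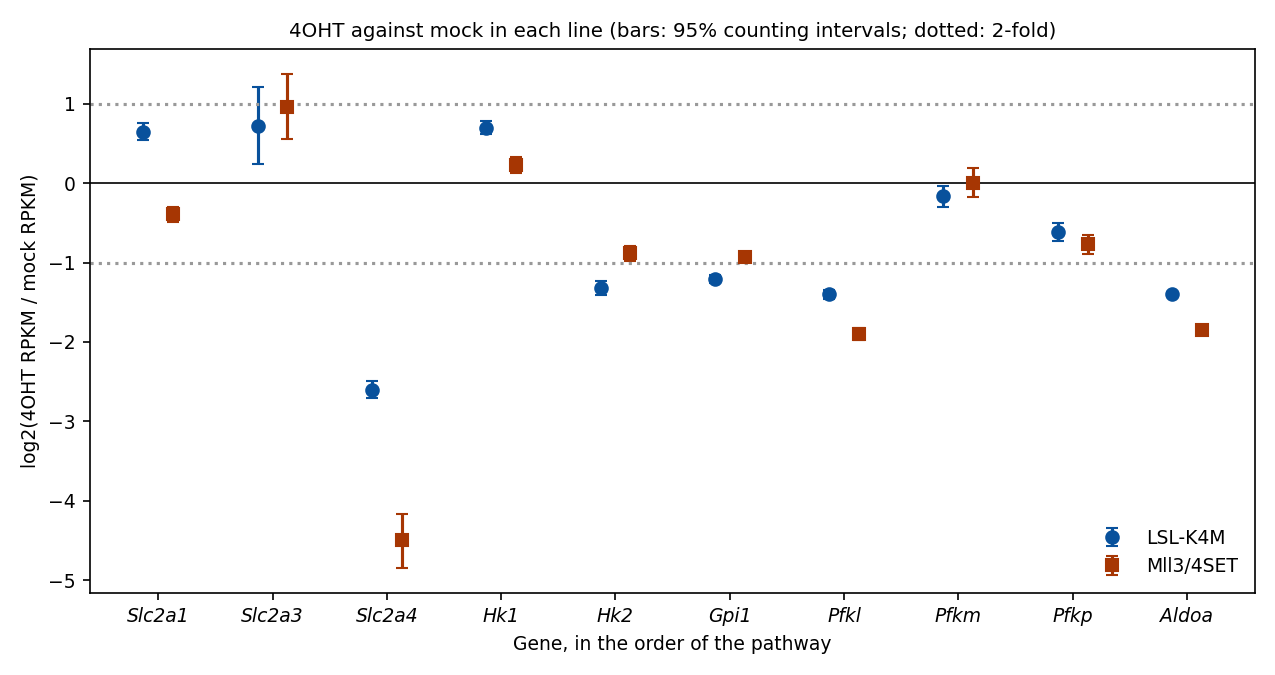
log2 of the 4OHT to mock RPKM ratio of each gene in LSL-K4M (circles) and Mll3/4SET (squares), with 95% counting intervals. Slc2a4, Hk2, Gpi1, Pfkl, Pfkp and Aldoa lie below 0 in both lines, Hk1 and Slc2a3 above 0 in both, and Slc2a1 on opposite sides.

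Without 4OHT the lines already differed for some members. These levels come from separate tables, between which the RPKM of a read differed by 1 factor, 0.969 for Mll3/4SET mock over LSL-K4M mock. Slc2a4 was 2.71-fold lower in Mll3/4SET mock than in LSL-K4M mock (2.57 to 2.87), the single member past the 2-fold limit of the 9 measured there, against 3.18% of 12027 genes in that direction, and 0 members were 2-fold higher, against 1.82%. Pfkm was 1.93-fold lower (1.73 to 2.15), Gpi1 1.44-fold lower (1.39 to 1.48), Pfkl 1.36-fold lower (1.32 to 1.41) and Slc2a1 1.63-fold higher (1.52 to 1.75). Aldoa differed by 1.03-fold (1.02 to 1.05) and Pfkp by less than counting error (1.04-fold lower, 0.974 to 1.12).

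The rest of the sugar pathways was described by the lists it belongs to. Among 10 other transporters, 6 were measured in each line. In LSL-K4M 1 was 2-fold lower and 1 higher, against 6.19% and 5.26% of all genes. In Mll3/4SET 0 were lower and 1 higher, against 7.41% and 5.18%. Slc2a6 was the higher one, going from 2.23 to 7.53 RPKM in LSL-K4M, 3.37-fold (2.70 to 4.23), and from 1.47 to 4.51 in Mll3/4SET, 3.07-fold (2.33 to 4.08). Slc2a5, the fructose transporter, went from 4.45 to 0.519 RPKM in LSL-K4M, 8.56-fold lower (6.07 to 12.4), and read 0.406 and 0.0596 in the Mll3/4SET libraries, too low to be measured. Of 9 other isozymes of these steps and of their reversal 2 were measured: Aldoc, the brain-type aldolase, read 3.98, 0.996, 2.08 and 0.813 RPKM in LSL-K4M mock and 4OHT and then Mll3/4SET mock and 4OHT, and G6pc3, a glucose-6-phosphatase, at 9.81, 11.4, 9.75 and 12.7.

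The enzymes that set fructose 2,6-bisphosphate, the activator of phosphofructokinase, had 2 of 5 measured members 2-fold lower in each line and none higher. Pfkfb3 went from 57.4 to 23.4 RPKM in LSL-K4M, 2.45-fold lower (2.34 to 2.56), and from 62.7 to 5.40 in the other line, 11.6-fold lower (10.7 to 12.6). Pfkfb1 was 3.46-fold (2.95 to 4.06) and 14.0-fold lower (10.0 to 20.3) in the same lines. Below aldolase, 0 of 8 measured genes of lower glycolysis were 2-fold lower in LSL-K4M (median -0.78), against 6.19% of all genes. In Mll3/4SET 3 of 9 were lower (median -0.64), against 7.41%, namely Tpi1, Pgk1 and Pgam1. Tpi1, triose phosphate isomerase, was 1.94-fold (1.88 to 2.01) and 2.47-fold lower (2.38 to 2.57). Gapdh, a glycolytic enzyme that most cells hold at high levels and whose mouse gene has many pseudogene copies, read 3.80, 1.91, 2.55 and 1.42 RPKM in LSL-K4M mock and 4OHT and then Mll3/4SET mock and 4OHT. No source used here says how reads matching several places were counted, and copies of Tpi1, Pgk1 and Pgam1 were not looked for, so these values are uncertain to that extent.

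The pentose phosphate pathway branches off at glucose 6-phosphate and yields NADPH for fat synthesis. In LSL-K4M 4 of its 8 members were 2-fold lower (median -1.02), against 6.19% of all genes. In Mll3/4SET 5 of 8 were lower (median -1.38), against 7.41%. No member of the pathway was 2-fold higher, against 5.26% and 5.18% of all genes. G6pdx, its entry enzyme, went from 95.1 to 32.5 RPKM in LSL-K4M, 2.92-fold lower (2.78 to 3.08), and from 73.1 to 16.4 in the other line, 4.45-fold lower (4.14 to 4.78). Tkt, transketolase, was 3.71-fold (3.61 to 3.81) and 3.57-fold lower (3.42 to 3.73). Pgls, the lactonase that follows G6pdx, was at 31.8, 32.7, 32.9 and 33.9 RPKM.

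Glycogen and hexosamine genes split. In LSL-K4M 3 of 14 measured members were 2-fold lower, against 6.19% of all genes, and in Mll3/4SET 2 of 14, against 7.41%. None was 2-fold higher, against 5.26% and 5.18%, and the medians were near 0 (-0.02 and 0.04). Gbe1, the glycogen branching enzyme, went from 77.8 to 19.4 RPKM in LSL-K4M, 4.01-fold lower (3.77 to 4.27), and from 50.5 to 3.19 in the other line, 15.8-fold lower (13.7 to 18.4). The phosphoglucomutase listed as Pgm2 (current symbol Pgm1) was 2.90-fold (2.75 to 3.06) and 3.35-fold lower (3.13 to 3.58), while Gfpt2, an entry enzyme of the hexosamine branch, was 1.61-fold (1.44 to 1.80) and 1.77-fold higher (1.62 to 1.94), short of the limit.

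Of 16 genes that move GLUT4 to the surface, 4 were 2-fold lower in LSL-K4M, against 6.19% of all genes. In Mll3/4SET 5 of the 16 were lower, against 7.41%. None was 2-fold higher in either line, against 5.26% and 5.18% of all genes, and the medians were -0.22 and -0.33. Those called in both were Tbc1d4 (AS160, a brake on GLUT4 vesicles that insulin releases), Sort1 (sortilin, which forms those vesicles), Tusc5 (current symbol Trarg1, a GLUT4 trafficking regulator) and Insr, the insulin receptor. Tbc1d4 went from 15.4 to 3.57 RPKM in LSL-K4M, 4.31-fold lower (3.92 to 4.74), and from 11.2 to 0.584 in the other line, 19.1-fold lower (15.4 to 24.1). Tusc5 was at 9.89, 2.55, 26.2 and 0.157 RPKM. The vesicle and fusion genes Rab10, Vamp2 and Stx4a were not past the limit in either line, with Rab10 at 38.8, 43.9, 54.0 and 53.1 RPKM.

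Among 10 measured glucose-responsive and oxygen-responsive regulators, 3 were 2-fold lower and 1 higher in LSL-K4M, against 6.19% and 5.26% of all genes. In Mll3/4SET 2 were lower and 0 higher, against 7.41% and 5.18%. Mlxipl (ChREBP), which senses glucose metabolites in fat and liver, went from 59.0 to 11.3 RPKM in LSL-K4M, 5.20-fold lower (4.85 to 5.58), and from 15.5 to 0.190 in the other line, 81.9-fold lower (49.4 to 147). Its partner Mlx was at 19.0, 13.0, 13.4 and 9.56 RPKM, short of the limit. Egln3, an oxygen-sensing hydroxylase that marks HIF proteins for breakdown, went from 20.3 to 4.86 RPKM in LSL-K4M, 4.17-fold lower (3.67 to 4.75), and from 52.7 to 1.45 in the other line, 36.4-fold lower (29.3 to 45.7). Hif1a, the oxygen-regulated transcription factor, was 2.09-fold higher in LSL-K4M (2.02 to 2.16) and 1.22-fold higher in Mll3/4SET (1.19 to 1.26).

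**Figure D4:**
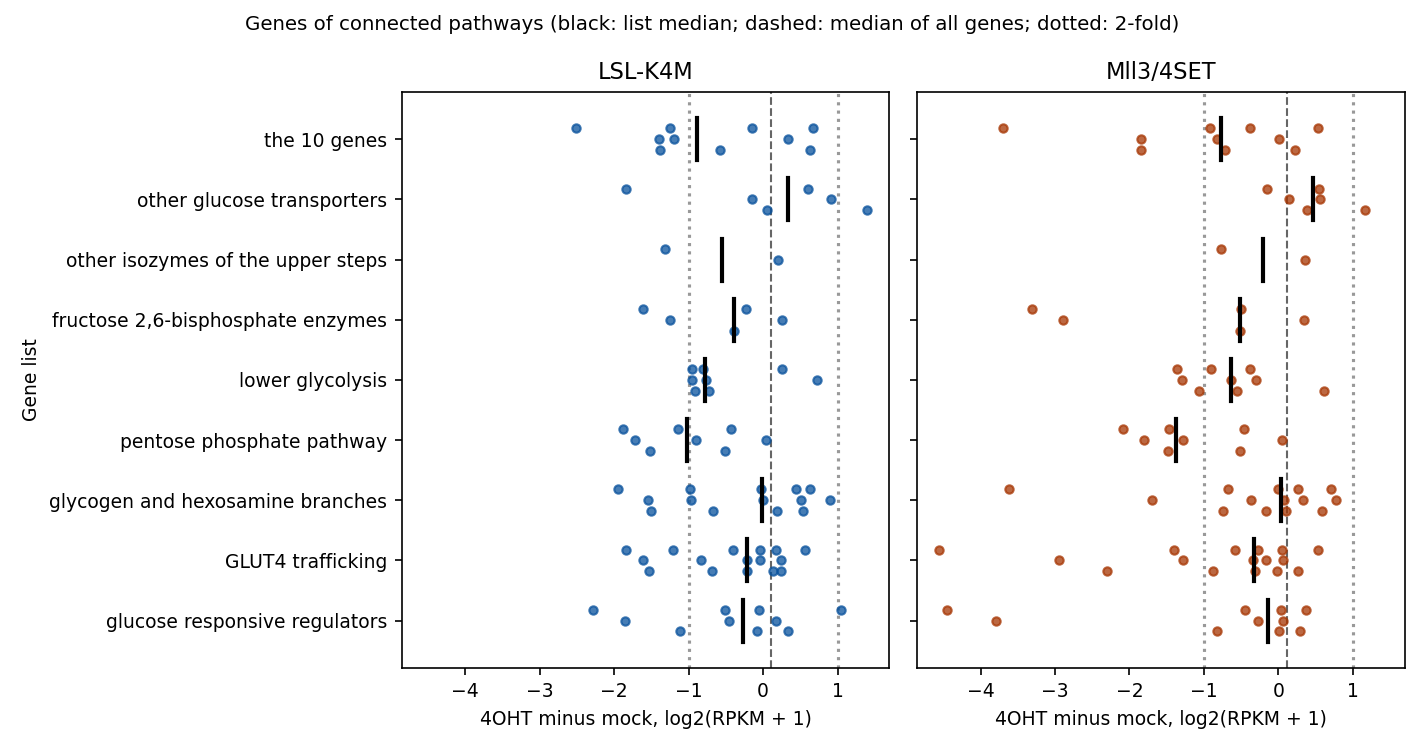
Each point is a measured gene, by its 4OHT minus mock difference on the log2(RPKM + 1) scale in LSL-K4M (left) and Mll3/4SET (right), in rows of gene lists. The medians of the 10 genes, -0.89 and -0.77, and of the pentose phosphate list, -1.02 and -1.38, lie left of the medians of all genes, 0.10 and 0.12.

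Slc2a4, Hk2 and Pfkm are also muscle genes, so markers of skeletal muscle were read beside them. The 11 muscle markers summed to 7.99, 16.8, 6.53 and 7.95 RPKM in LSL-K4M mock and 4OHT and then Mll3/4SET mock and 4OHT, and Myod1, Myog, Myh1 and Myh4 had 0 reads in all 4 libraries, where a count of 0 allows up to 3 reads. Acta1 was the highest of them with 4OHT in LSL-K4M, at 10.9 RPKM. It was the 1 gene past the limit of the 2 measured there and of the 3 measured in Mll3/4SET. Its direction was higher in both, against 5.26% and 5.18% of all genes. The 6 macrophage markers found in the tables summed to 2.05 to 3.11 RPKM over the libraries, with Ptprc at 0 reads in all but LSL-K4M 4OHT, the 3 endothelial markers to 0.0508 to 0.684, with Cdh5 at 0 reads throughout, and the 3 erythroid markers to 0.249 to 0.674, with Hba-a1 at 0 reads in all but Mll3/4SET 4OHT. The 5 preadipocyte and mesenchymal markers summed to 371.8, 329.5, 405.9 and 205.5 RPKM in that order. In LSL-K4M 1 of 5 was 2-fold higher, against 5.26% of all genes. In Mll3/4SET 2 of 5 were lower, against 7.41%. Ly6a was the largest part of each sum, and the markers split. Ly6a and Pdgfra were lower with 4OHT in both lines, Pdgfrb and Dlk1 were higher in both, and Cd34 was higher in LSL-K4M only. The median log2 differences were 0.32 in LSL-K4M and -0.79 in Mll3/4SET.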

How the data were processed

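Samples were grouped from their labels by line, assay, treatment and stage, each group being 1 library. The deposited tables, 1 per line, give read counts and RPKM per RefSeq transcript, per the file headers; the authors' ratio of mock to 4OHT and a further deposited column of kind other, headed as expressed, were not used. The build mm9 and the tool SICER are named in the submitters' processing notes. The aligner, the counter and the use of strand are not given in the sources used here. No column of another series was found (0).

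RPKM per read of 4OHT over mock was 0.938 in LSL-K4M and 1.03 in Mll3/4SET. Folds are ratios of RPKM with exact conditional binomial intervals of the counts, and ratios between lines carry exact conditional odds-ratio intervals (SciPy 1.17.1, pandas 2.3.3, NumPy 2.4.6, Python 3.11.15). Differences used log2(RPKM + 1), genes at 1 RPKM or more, and a 2-fold limit; the rule was tested on simulated counts with counting error alone, which says nothing of the spread between replicates. Named genes are the 10 members, up to 4 of each list with the largest difference per line, and the 3 nearest patterns per member; Pgls, Gapdh, Rab10, Vamp2, Stx4a, the targeted genes, the Aldoa copies and single marker genes were named outside this rule, after their values were seen, and not every gene under it is printed. The members and lists were chosen with earlier results of these data known. Alternatives were other pseudocounts, filters, scalings and transcript rows.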

Additional observations from a re-analysis of the deposited data

Results flagged for a closer look

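Slc2a1 moved in opposite directions in the lines, its log2(RPKM + 1) difference being 0.63 for LSL-K4M but -0.38 for Mll3/4SET. The difference between the lines was not tested against replicates, since each group is 1 library. The interval of its ratio between the lines (2.06-fold, 1.87 to 2.27) covers counting error alone. Pfkm was also on opposite sides of 0, at -0.16 and 0.01, and this was not tested either; the Mll3/4SET value lies within counting error of 0.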

How the results depend on the processing

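No paired analysis was possible because each group holds 1 library, and none could be left out. Members called 2-fold lower numbered 4 to 5 in LSL-K4M and 2 to 4 in Mll3/4SET over the alternatives. The lowest counts, 4 and 2, came only from dropping genes with several transcript rows, which left 7 members measured. Gpi1 passed the limit in Mll3/4SET once scaled by median ratios, a step that shifted the all-gene median there from 0.12 to 0.01, and Aldoa left both counts when genes with several transcript rows were dropped. The LSL-K4M median of the members was -1.20 with a minimum of 5 RPKM, -1.20 without genes of several rows, and -0.99 under both median-ratio and upper-quartile scaling; the Mll3/4SET median was -0.89 under median-ratio scaling. Other pseudocounts, other filters and the dropping of genes cannot change the direction of a single member. Only the scalings and the choice of transcript row could do so. Of all 206 alternative values of single members, those fixed in advance included, 204 kept their direction. The exceptions were Pfkm in Mll3/4SET under both scalings, -0.10 at the lowest. The Slc2a4 difference in Mll3/4SET reached -4.50 with a pseudocount of 0.001. Over all genes, the counts called moved with the pseudocount: at 0.1 the higher calls were 1018 in LSL-K4M and 1013 in Mll3/4SET, against 641 and 631. The lower calls were 1040 in LSL-K4M and 1134 in Mll3/4SET at 0.1, and 1084 and 1161 at 0.001, against 754 and 903. Under median-ratio scaling the lower calls were 900 and 1027 and the higher calls 510 and 476. The all-gene shares set beside the members thus depend on the setting. Between the mock libraries the 382 lower and 219 higher calls became 615 and 371 at 0.1, and 650 and 403 at 0.001. Slc2a3, with 58 to 150 reads, is the member most limited by depth.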

Other observations

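The genes whose centred log2(RPKM + 1) pattern over the 4 libraries lay nearest to a member, by Euclidean distance, are given as a description over 4 libraries. The pool was 6271 genes at 10 RPKM or more in a library, after symbols of predicted loci, clones, microRNAs and small nucleolar RNAs were left out. Nearest to Slc2a4 were Kcnk3, a potassium channel of brown fat, at 34.6, 5.21, 14.3 and 0.0727 RPKM in LSL-K4M mock and 4OHT and Mll3/4SET mock and 4OHT (distance 0.161), Pnpla3, a lipid droplet lipase (0.253), and Sncg, a synuclein also made by fat cells (0.358). In Mll3/4SET 4OHT Kcnk3 and Pnpla3 (0.149 RPKM) lay under 1 RPKM, where this scale flattens folds, and Slc2a4 was at 1.24. Their folds in that line were therefore larger than that of Slc2a4. Nearest to Pfkl were Tmem135 (0.0666), Csl (0.110) and Acsf2 (0.113). Nearest to Hk2 were Coasy, an enzyme of coenzyme A synthesis (0.135), Uqcrq, a respiratory chain subunit (0.150), and Ifi44 (0.197). Hk1 lay nearest to Gmppb (0.0477) and Slc2a1 to Rpp21 (0.163), while the retrogene copy Aldoart1 was nearest to Aldoa (0.0451), followed by Ugt1a6a (0.0971) and Ugt1a1 (0.145).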
